A study of Mus musculus with 24 samples.

Results

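Brown adipose tissue (BAT) of Gfap-Bmal1 cKO mice, in which the clock gene Bmal1 is deleted conditionally under the direction of Gfap, was compared with BAT of control mice, both after 16 weeks on standard diet. The comparison rests on 6 arrays, 3 cKO and 3 control, chosen by their labels from the 24 arrays of the series. The other 18 arrays hold BAT of the same genotypes on high fat diet, also for 16 weeks, and the ventromedial hypothalamus on both diets, again with 3 arrays a group. Total RNA was extracted with Trizol from 20 mg of BAT per sample, per the labels. Gfap encodes an intermediate filament of astrocytes, so the deletion was directed to astrocytes and not to brown adipocytes. Whether any other cell within BAT carries it was not measured here. The labels describe the controls as control mice with no further allele. Age, sex, strain, time of day at harvest and the allele that drives the deletion are not stated there. Nor is it stated whether the 3 arrays of a group are 3 animals, and the p-values below therefore describe array-to-array spread, part of which may be technical.

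Brown fat is a heat-producing tissue. Its adipocytes oxidise fatty acids in many mitochondria, and uncoupling protein 1 (Ucp1) lets protons re-enter the mitochondrial matrix without making ATP. Sympathetic nerves from the brain, under the control of hypothalamic nuclei, switch this programme on, and it includes making fatty acids from glucose as well as burning them. The clock protein BMAL1, encoded by Arntl, pairs with CLOCK and binds E-box sequences in the promoters of the Per, Cry and Nr1d genes, whose products then repress it.

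In these data no gene differed between cKO and control BAT on standard diet after adjustment for multiple testing. Of 17124 genes tested with limma on all 12 BAT arrays, 0 passed a Benjamini-Hochberg adjusted p of 0.05 (0% called), and the smallest adjusted p was 0.982. An unadjusted p under 0.05 was reached by 610 genes (3.56% of those tested), 286 higher in cKO (1.67%) and 324 lower (1.89%). The 3 cKO arrays lay wholly above or wholly below the 3 control arrays for 1239 genes (7.24%), of which 604 were higher (3.53%) and 635 lower (3.71%). The difference was above 0 for 46.2% of genes and below 0 for 53.8%, with a median of -0.016. All differences below are cKO minus control on the log2 scale of the deposited signal, where 1 unit is a doubling, with the standard error (SE) of the fit. Because no gene passed the test, the genes and groups are given as values with their spread, and none of them is called changed.

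The 6 arrays differed in markers of other tissues, within genotypes as well as between them. Fast skeletal muscle genes, which encode contractile and calcium-handling proteins of muscle fibres, had a mean log2 signal over 24 markers of 17.4, 5.80 and 16.0 on control arrays 1, 2 and 3 and of 14.0, 17.1 and 16.2 on cKO arrays 1, 2 and 3. Control array 2 was therefore the one standard diet array with little muscle signal, and the other 5 were high in both genotypes. All 24 markers averaged higher in cKO, with a median difference of 2.55, but the difference in the mean was -0.935 without control array 2 and 2.70 with it (exact permutation test, two-sided, p = 0.8; 3 against 3 arrays cannot go below 0.1). On the high fat arrays, used for comparison below, this mean was 6.80, 5.84 and 8.98 in control and 5.87, 9.78 and 12.15 in cKO. All 24 markers averaged higher in cKO there too, with a median difference of 1.98. The part of muscle signal in differences between the diets was not tested. On standard diet Myh4, a fast myosin heavy chain, read 19.91, 4.95 and 19.90 in control and 19.31, 19.91 and 19.90 in cKO. Its values of 19.90 and 19.91 lie next to the highest value of the deposited scale, 19.93, where differences can be lost.

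Slow skeletal muscle genes split the arrays in another way. The mean over 8 markers was 6.51, 4.62 and 10.5 in control and 8.59, 11.4 and 10.3 in cKO, a difference of 2.85 (exact permutation test, two-sided, p = 0.3), and 1.55 without control array 2. The slow myosin Myh7 read 5.31, 4.61 and 14.08 in control and 11.80, 15.25 and 13.97 in cKO, so control array 1 was high in fast fibre genes and near the low end in slow fibre genes. Its difference of 5.68 ± 2.27 (SE, n = 3 arrays a group) had an unadjusted p of 0.032 in limma and an adjusted p of 0.982. Tnni1, the slow fibre troponin I, differed by 4.15 ± 1.78, and Sln (sarcolipin), a regulator of the calcium pump of the sarcoplasmic reticulum, by 2.89 ± 1.20. Atp2a2, that pump in slow fibres and many other cells, read 11.26, 14.01 and 16.37 in control and 15.27, 16.79 and 16.12 in cKO.

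Defining markers of brown adipocytes were bright on most arrays and dim on a pair of them. Ucp1 read 8.87 on control array 1 and 19.93 on control arrays 2 and 3. On cKO arrays 1 to 3 it read 19.93, 16.30 and 19.31, where 19.93 is the highest value the deposited scale takes. Cidea, a lipid droplet protein of brown fat, read 8.73, 18.60 and 17.93 in control and 18.36, 13.08 and 16.57 in cKO. Elovl3, a fatty acid elongase induced by cold, read 4.10, 16.06 and 13.71 in control and 10.30, 5.53 and 11.43 in cKO. Control array 1 was thus the lowest in all 3 genes and cKO array 2 the next lowest, while the remaining control and cKO arrays overlapped for Ucp1 and Cidea.

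Averaged over 11 brown adipocyte markers, the signal was 9.97, 14.7 and 13.8 in control and 13.9, 11.5 and 13.1 in cKO, a difference of 0.020 (exact permutation test, two-sided, p = 1). Ucp1 itself was at the top of the scale on 3 of the 6 arrays, where a higher level could not be read, so its differences are of capped values and neither their size nor their direction is fixed by these arrays. Its capped difference was 2.27 ± 2.48 (SE) with a 95% interval from -3.28 to 7.82. The spread behind that SE is pooled with the high fat arrays, which all read 19.93 for Ucp1. On standard diet the standard deviation was 6.39 in control and 1.94 in cKO, so the interval is too narrow for these arrays. Without control array 1 the capped Ucp1 difference was -1.42, and without control array 1 and cKO array 2, an alternative added after seeing the data, it was -0.31. Cidea went from 0.92 ± 2.28 to -2.26 and to -0.80 in the same alternatives, and to -0.26 without cKO array 1. Elovl3 differed by -2.20 ± 2.74, and by 0.18 without control array 2.

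White adipocyte markers ran partly opposite to the brown ones. Their mean over 7 genes was 9.86, 7.57 and 8.29 in control and 7.78, 9.23 and 9.18 in cKO (exact permutation test, two-sided, p = 0.9), highest on control array 1. Lep, the hormone leptin of white adipocytes, read 14.44, 12.59 and 12.72 in control and 10.40, 11.92 and 12.53 in cKO. The cKO arrays lay below the control arrays, and the difference was -1.63 ± 1.21 (limma, adjusted p = 0.982). Retn, the adipocyte hormone resistin, overlapped between groups at 17.79, 13.95 and 16.09 against 15.15, 16.89 and 17.14. In RNA of whole tissue, fewer cells of a type and less RNA per cell cannot be told apart, and the part that muscle and white fat signal plays in the differences below was not tested beyond the covariate fits given beside them. The muscle score in those fits is the fast muscle score. With it the 8 slow muscle markers all stayed higher in cKO, with a median of 1.37 against 2.66 without it, so a muscle difference remained.

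**Figure D1:**
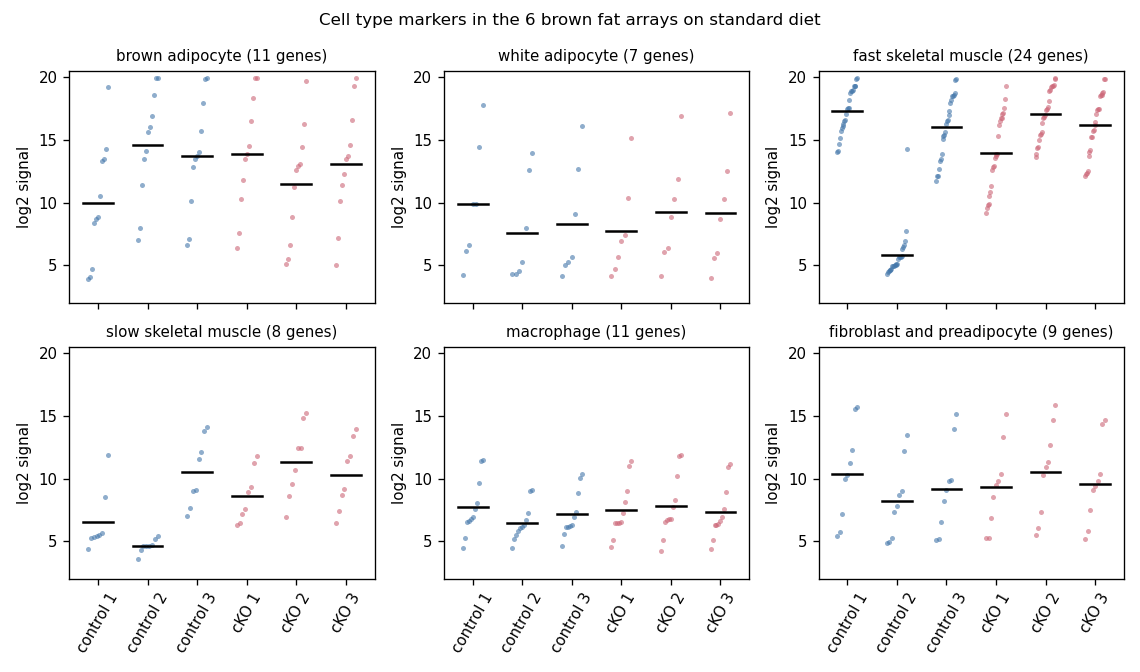
Markers of 6 cell types on each of the 6 standard diet BAT arrays; the vertical axis is the deposited log2 signal, each point is 1 gene, points of an array are spread sideways in order of signal, and the black bar is their mean. Control array 2 stands at a mean of 5.80 for fast skeletal muscle where the other arrays stand at 14.0 or above, and control array 1 has the lowest brown adipocyte mean, 9.97.

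Macrophage and fibroblast scores overlapped between the genotypes. Macrophage markers averaged 7.70, 6.49 and 7.14 in control and 7.48, 7.82 and 7.32 in cKO (exact permutation test, two-sided, p = 0.4), and 9 of 11 were higher in cKO. Their mean differed by 0.432, and by 0.124 without control array 2. Lyz2, the lysozyme of macrophages and neutrophils, differed by 1.29 ± 0.667. Fibroblast and preadipocyte markers were higher in 9 of 9, with a mean difference of 0.557 that was 0.020 without control array 2. Endothelial, mural, lymphocyte, neutrophil, Schwann cell, mesothelial and erythroid scores differed by between -0.105 and 0.623, with exact p from 0.4 to 1, and several of those lists had few markers above the signal filter. Of the lymphocyte markers 3 were higher and 2 lower, with a mean difference of 0.045, and of the neutrophil markers 1 was higher and 1 lower. In the lymphocyte list, Ptprc, the common leukocyte antigen, read 6.43, 6.14 and 6.18 in control and 6.97, 7.05 and 6.69 in cKO, without overlap, a difference of 0.65 ± 0.284.

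Arntl, the gene targeted in astrocytes, was not lower in cKO BAT. It read 5.84, 5.83 and 6.34 in control and 6.16, 5.80 and 7.25 in cKO, overlapping, with a difference of 0.40 ± 0.335 and a 95% interval from -0.353 to 1.15. Without cKO array 3 the difference was -0.025. Whether the array's Arntl feature lies within the part that was deleted could not be looked up here, so this value does not check the genotype labels.

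The core clock as a whole did not separate the genotypes. Of 17 measured members of a list of 21, 11 were higher and 6 lower in cKO, with a median of 0.138, and 0 had an unadjusted p under 0.05 or groups that did not overlap. Per1, a repressor of the clock that also responds to acute signals, came nearest: it read 7.47, 6.22 and 6.68 in control and 7.86, 8.29 and 6.69 in cKO. That is a difference of 0.82 ± 0.398 with an interval from -0.0681 to 1.71, and the lowest cKO array lay within the control arrays. Per2, its paralogue, differed by 0.28 ± 0.212, and Nr1d1, the repressor REV-ERB alpha, by 0.43 ± 0.489. Clock, the partner of BMAL1, differed by 0.020 ± 0.293.

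Of the genes driven by the clock, Dbp and Usp2 varied most among arrays. All 8 measured members of the output list averaged higher in cKO (46.2% of all genes did), with a median of 0.155. Dbp, a transcription factor of the output arm, read 10.55, 8.39 and 9.65 in control and 9.04, 11.02 and 9.04 in cKO. Usp2, a deubiquitinase with a daily rhythm, read 10.14, 7.11 and 9.43 in control and 8.21, 10.91 and 9.07 in cKO. Both were lowest on control array 2, the array with little muscle signal. With the fast muscle score of each array as a covariate, the median of the 8 genes was 0.0026, 4 were higher and 4 lower, and Dbp and Usp2 stood at -0.30 and -0.20. Without the covariate they differed by 0.17 ± 0.632 and 0.51 ± 0.827, by -0.40 and -0.39 without control array 2, and by -0.49 and -0.25 without cKO array 2.

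The promoter of Per1 is printed because it holds the E-box, CACGTG, that BMAL1 and CLOCK bind. The window holds 300 bases around the annotated start, chr11:69098699-69098998 on the plus strand of GRCm38.p6, from RefSeq, and capitals mark the E-box.

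Per1: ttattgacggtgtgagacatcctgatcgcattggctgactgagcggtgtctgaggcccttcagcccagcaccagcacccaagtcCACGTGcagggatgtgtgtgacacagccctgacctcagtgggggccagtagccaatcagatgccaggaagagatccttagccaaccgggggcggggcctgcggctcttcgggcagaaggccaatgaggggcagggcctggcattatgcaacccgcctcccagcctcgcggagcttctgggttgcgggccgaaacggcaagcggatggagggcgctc

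E-box letters, the same on both strands, stood in 3 of 22 windows of the core clock members and in 3 of 10 windows of the output members, against 7.15% of all 32851 windows of this length. They also stood in lists outside the clock, in 3 of 13 cholesterol synthesis windows and 3 of 15 fatty acid synthesis windows, and a window at another annotated start of Per1 held none. Other E-boxes of clock genes can lie outside these windows, and a match is a description of the letters.

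Cholesterol synthesis, the SREBP2-driven pathway from acetyl-CoA to sterols, had the lowest median of the 31 pathway lists. All 15 measured members of a list of 20 averaged lower in cKO, where 53.8% of all genes did, with a median difference of -0.945 against -0.016 for all genes. An unadjusted p under 0.05 was reached by 2 of the 15, against 1.89% of all genes in that direction, and 1 had groups that did not overlap, against 3.71%. The list mean was 8.10, 9.71 and 8.63 in control and 8.09, 7.38 and 8.43 in cKO, so control array 2 was highest, cKO array 2 lowest, and the other 4 lay between 8.09 and 8.63. The median difference was -0.41 without control array 2 and -0.603 without cKO array 2. On high fat diet, in separate control and cKO arrays, it was 0.334, with 12 of 15 higher and 3 lower (46.7% of all genes were higher and 53% lower there). Those arrays held less fast muscle signal than most standard diet arrays, as given above, and its part in this was not tested.

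Sc5d, the lathosterol oxidase late in the pathway, read 12.92, 13.77 and 12.67 in control and 10.78, 10.96 and 12.96 in cKO. Arrays 1 and 2 of the cKO group lay below every control array and array 3 within them, and the difference was -1.55 ± 0.54 (limma, unadjusted p = 0.017, adjusted p = 0.982). Nsdhl, a sterol dehydrogenase, read 8.87, 11.52 and 9.60 in control and 8.79, 7.36 and 9.13 in cKO, a difference of -1.57 ± 0.674. Fdps, the farnesyl diphosphate synthase, read 7.07, 8.27 and 7.24 in control and 6.58, 6.17 and 6.81 in cKO and was the one member whose groups did not overlap. Its difference was -1.01 ± 0.47. Lss, the lanosterol synthase, stood at -0.94 ± 0.44 and Idi1, the isopentenyl diphosphate isomerase, at -1.18 ± 0.554.

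The regulators Insig1 and Srebf2 pointed the same way with smaller or less certain values, and the enzyme Hmgcs1 did not keep its sign in every alternative. Insig1, which retains SREBP in the endoplasmic reticulum and is itself an SREBP target, read 13.44, 16.39 and 14.93 in control and 13.73, 12.22 and 14.33 in cKO, a difference of -1.49 ± 0.824. Hmgcs1, the synthase that makes HMG-CoA, differed by -0.83 ± 0.87, by 0.023 without control array 2 and by 0.026 without cKO array 2. Srebf2, the gene of SREBP2, differed by -0.23 ± 0.189.

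With the fast muscle score as a covariate, which left the slow muscle markers higher, the 15 genes all stayed lower. Their median was -0.678, while the median over all genes was -0.00063 and 49.7% of genes were higher. That fit called 0 genes (limma, smallest adjusted p 0.285), with 3.63% at an unadjusted p under 0.05. The fast muscle and brown adipocyte means of control array 2 and cKO array 2 are given above. A fit with the brown adipocyte score as a covariate, added after seeing the data, called 0 genes (limma, smallest adjusted p 0.714). Of the cholesterol genes named above, none changed sign in it. The list median in that fit is not given here, and the cause of the array pattern was not tested.

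Promoters of 3 of these genes are printed to show letters the members share. Each 300-base window is from RefSeq on GRCm38.p6, written on the strand of the gene. The windows are chr9:42264251-42264550 on the minus strand for Sc5d, chrX:72918271-72918570 on the plus strand for Nsdhl and chr13:119690101-119690400 on the plus strand for Hmgcs1. Capitals mark the CCAAT box, as CCAAT or its reverse complement ATTGG, which NF-Y binds beside SREBP, and in Hmgcs1 also the sterol regulatory element TCACCCCAC.

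Sc5d: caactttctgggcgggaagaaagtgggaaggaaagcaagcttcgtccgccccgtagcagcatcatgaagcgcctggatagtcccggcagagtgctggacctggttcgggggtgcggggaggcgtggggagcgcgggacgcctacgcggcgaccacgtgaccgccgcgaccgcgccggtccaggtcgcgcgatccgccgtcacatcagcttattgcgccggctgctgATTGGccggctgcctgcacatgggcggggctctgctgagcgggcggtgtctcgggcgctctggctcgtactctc

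Nsdhl: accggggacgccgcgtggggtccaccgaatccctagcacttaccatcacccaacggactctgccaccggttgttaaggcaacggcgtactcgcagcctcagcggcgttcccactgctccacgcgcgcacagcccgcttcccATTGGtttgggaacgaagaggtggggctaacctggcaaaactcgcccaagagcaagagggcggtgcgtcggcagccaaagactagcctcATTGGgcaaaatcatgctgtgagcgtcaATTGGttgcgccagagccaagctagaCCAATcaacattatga

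Hmgcs1: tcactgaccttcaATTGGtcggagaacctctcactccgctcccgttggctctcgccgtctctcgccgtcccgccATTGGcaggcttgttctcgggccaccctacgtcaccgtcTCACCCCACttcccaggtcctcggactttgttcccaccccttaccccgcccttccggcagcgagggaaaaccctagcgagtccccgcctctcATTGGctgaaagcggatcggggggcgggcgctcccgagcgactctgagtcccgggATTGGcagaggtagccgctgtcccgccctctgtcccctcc

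A CCAAT box, searched on both strands, stood in 11 of the 13 windows of the 11 members that have one, against 37.4% of all windows, 10 of 15 windows of fatty acid synthesis and 12 of 22 of the core clock. The sterol element, searched as TCACNCCAC on both strands, stood in 1 of the 13 windows, that of Hmgcs1, against 1.24% of all. The motifs are letters in a window and say nothing of binding in these samples.

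Fatty acid synthesis, the SREBP1- and ChREBP-driven pathway that makes palmitate from citrate, had 14 of 15 measured genes lower in cKO, with a median of -0.777. The list mean was 13.2, 15.1 and 14.1 in control and 13.7, 12.1 and 14.0 in cKO, with the same pair of extreme arrays as for cholesterol synthesis. Me1, the malic enzyme that supplies NADPH, read 17.71, 18.20 and 17.50 in control and 16.10, 15.60 and 17.52 in cKO, a difference of -1.39 ± 0.442 (limma, unadjusted p = 0.0106). Acss2, the cytosolic acetyl-CoA synthetase, read 9.89, 12.30 and 9.89 in control and 8.75, 8.0 and 9.77 in cKO, without overlap, a difference of -1.86 ± 0.688.

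The main enzymes of the pathway were likewise highest on control array 2 and lowest on cKO array 2, with wider errors. Acaca, acetyl-CoA carboxylase, differed by -1.55 ± 0.795, Acly, ATP citrate lyase, by -1.68 ± 0.965 and Fasn, fatty acid synthase, by -0.98 ± 0.541. Scd1, the stearoyl-CoA desaturase, was at the top of the scale on all 6 arrays and could show no difference. The median for the list was -0.229 with the muscle score as a covariate, -0.149 without control array 2, -0.175 without cKO array 2 and 0.124 on high fat diet, so a value of this size rests on those arrays.

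The proteasome, which degrades ubiquitinated proteins, had a median below 0 and no gene past the adjusted test. All 23 measured subunits of 24 averaged lower in cKO, with a median of -0.273, and 8 had groups that did not overlap, against 3.71% of all genes in that direction. The list mean was 10.5, 10.7 and 10.4 in control and 10.4, 10.2 and 10.1 in cKO. Psmb2, a subunit of the catalytic core, read 8.33, 8.70 and 8.16 in control and 8.07, 7.45 and 7.11 in cKO, a difference of -0.85 ± 0.324 (limma, unadjusted p = 0.0263, adjusted p = 0.982). Psmd1, a subunit of the regulatory particle, read 12.25, 11.96 and 11.88 in control and 11.58, 11.82 and 11.70 in cKO, a difference of -0.33 ± 0.236.

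Leaving out any single array kept the proteasome median between -0.343 and -0.179, and the muscle covariate gave -0.239 with 23 of 23 lower. On high fat diet the median was 0.279, with 3 of 23 lower. No gene passed the test of the genotype by diet interaction over all genes (limma, 0 of 17124, smallest adjusted p 1), and 649 (3.79%) had an unadjusted p under 0.05 for it.

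**Figure D2:**
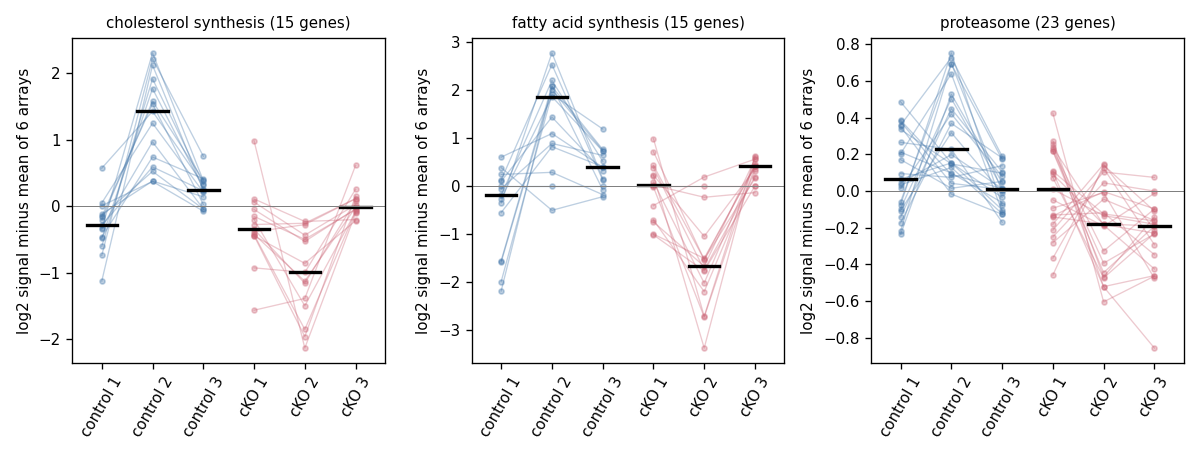
Members of 3 gene lists on each standard diet array, as log2 signal minus the gene's mean over the 6 arrays; each line is 1 gene within a genotype, points are arrays, and the black bar is the median of the list. The medians of cholesterol and fatty acid synthesis are highest on control array 2 and lowest on cKO array 2, while the proteasome genes span a narrower range.

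Glucose uptake and glycolysis had 14 of 17 genes lower, with a median of -0.282, where 53.8% of all genes were lower. An unadjusted p under 0.05 was reached by 3, against 1.89% of all genes in that direction. Slc2a4, the insulin-regulated transporter GLUT4, read 12.44, 13.07 and 12.28 in control and 11.90, 11.96 and 11.80 in cKO. The groups did not overlap, and the difference was -0.71 ± 0.223 (limma, unadjusted p = 0.0103, adjusted p = 0.982). It was -0.54 ± 0.16 with the muscle score as a covariate and -0.17 on high fat diet. Hk2, the hexokinase of insulin-sensitive tissues, differed by -0.90 ± 0.399 and Pkm, pyruvate kinase, by -0.67 ± 0.279. The list median was -0.026 without control array 2. On high fat diet it was -0.328, with 15 genes lower and 1 higher. Gapdh read 19.26 on all 6 arrays, one of 29 features of a mean signal above 12 whose 6 values spanned under 0.02, so it could show no difference either.

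The lists of the oxidative programme had medians below 0 without a covariate and above 0 with the muscle covariate. Of 53 measured respiratory chain subunits 48 averaged lower, with a median of -0.247 that became 0.0583 with the muscle covariate and 0.173 without control array 2. The citrate cycle list (16 of 17 lower, median -0.291) became 0.0494 with the covariate and 0.207 without control array 2. The beta-oxidation list (14 of 19 lower, median -0.122) became 0.367 and 0.574 in the same fits. On high fat diet, without a covariate, the respiratory chain median was -0.228 (48 of 53 lower) and that of the citrate cycle -0.184 (15 of 17 lower). The beta-oxidation median there was -0.327 (18 lower, 0 higher), where 53% of all genes were lower. On standard diet none of these 3 lists held a gene with an unadjusted p under 0.05. Among them Atp5g2, a subunit of the ATP synthase rotor, came nearest, with a difference of -0.50 ± 0.261.

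Of 21 measured members of the thermogenesis list of 26, which include Ucp1, Cidea and Elovl3, 9 were higher and 12 lower, with a median of -0.080 and a mean of 0.031. Its median was 0.447 with the muscle covariate, -1.01 without control array 1 and 0.612 without control array 2. Ppara, the fatty acid receptor that drives oxidation genes, differed by 0.67 ± 1.17, by -0.34 without control array 1 and by -0.74 without cKO array 1.

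**Figure D3:**
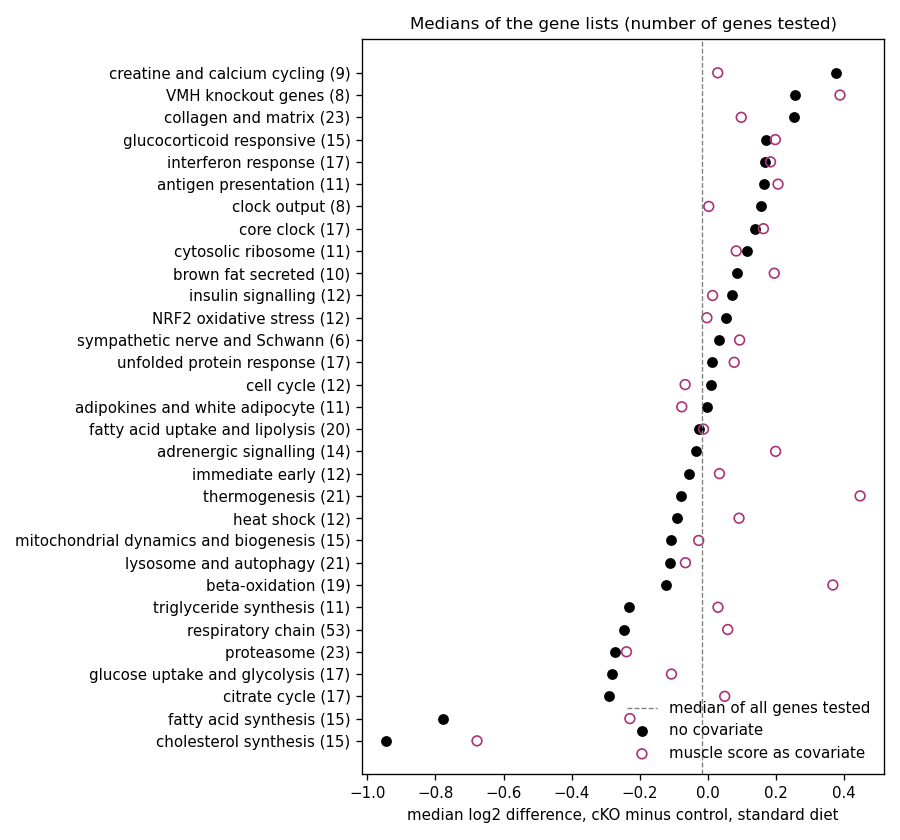
Median log2 difference, cKO minus control on standard diet, of the 31 pathway lists, with the number of genes tested in brackets; filled circles are the fit without a covariate, open circles the fit with the fast muscle score of each array, and the dashed line is the median of all genes, -0.016. Cholesterol synthesis stays lowest in both, at -0.945 and -0.678, while thermogenesis moves from -0.080 to 0.447.

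Matrix and immune lists leaned to the higher side. Collagen and matrix genes were higher in 19 of 23, with a median of 0.253, or 0.098 with the muscle covariate and 0.0074 without control array 2. Mmp2, a gelatinase of stromal cells, differed by 1.06 ± 0.674, Fn1, fibronectin, by 1.1 ± 0.709 and Timp2, a protease inhibitor, by 1.01 ± 0.669, none past an unadjusted p of 0.05. Fibroblast markers moved with them, as given above, and their part was not tested. Antigen presentation genes were higher in 11 of 11, with a median of 0.165 and a list mean of 7.86, 7.85 and 7.74 in control and 8.20, 8.08 and 7.91 in cKO. H2-D1, a class I heavy chain, read 9.82, 9.56 and 9.44 in control and 9.90, 9.95 and 9.90 in cKO, without overlap, a difference of 0.31 ± 0.146. The class II genes H2-Ab1 and H2-Eb1 differed by 0.70 ± 0.563 and 0.62 ± 0.479.

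Interferon response genes were higher in 13 of 17, with a median of 0.169, and 4 had groups that did not overlap (3.53% of all genes in that direction). Usp18, which removes the ubiquitin-like ISG15, read 4.21, 4.33 and 4.34 in control and 4.80, 4.58 and 4.44 in cKO, a difference of 0.31 ± 0.115 (limma, unadjusted p = 0.0219). Signals near 4 lie close to the filter of 4.13, the lower limit of what was tested. Of the immediate early genes, which cells switch on within minutes of a stimulus, 6 were higher and 6 lower. Klf4 and Myc, transcription factors of growth control, differed by 0.34 ± 0.128 and 0.39 ± 0.156.

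The 20 genes of known name with the highest and lowest moderated statistics had groups that did not overlap in every case, as their choice by this contrast makes likely, and an adjusted p of 0.982. The highest was Zbtb10, a zinc finger repressor, at 8.69, 8.0 and 8.35 in control and 9.79, 9.81 and 9.11 in cKO, a difference of 1.22 ± 0.274. Snx16, a sorting nexin of endosomes, read 8.30, 7.77 and 8.25 in control and 9.16, 9.30 and 8.83 in cKO, a difference of 0.99 ± 0.237. Tet2, which oxidises methylcytosine, stood at 0.49 ± 0.114 with control arrays between 7.67 and 7.70 and cKO arrays between 8.10 and 8.21. Unc93a2 differed by 1.21 ± 0.299.

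Among the others on the higher side, Jmjd1c, a histone demethylase family member, differed by 0.44 ± 0.11, and Myh10, non-muscle myosin IIB, by 0.89 ± 0.225. Ticam2, an adaptor of Toll-like receptor 4, differed by 0.44 ± 0.119 and Akap13, an anchor of protein kinase A, by 0.36 ± 0.0988. Lbh, a cofactor of transcription, stood at 0.81 ± 0.223 and Zfp704, a zinc finger gene, at 0.31 ± 0.084.

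On the lower side the leading gene was Zfp420, a zinc finger gene, at 5.72, 5.70 and 5.75 in control and 5.28, 5.30 and 5.24 in cKO, a difference of -0.45 ± 0.093. Farsb, a subunit of phenylalanyl-tRNA synthetase, read 9.64, 9.84 and 9.53 in control and 9.21, 9.20 and 9.29 in cKO, and Eif2b1, a subunit of the exchange factor of translation initiation, differed by -0.40 ± 0.102. Sec13, a coat protein of vesicles leaving the endoplasmic reticulum, differed by -0.39 ± 0.0878, and the endosomal sorting genes Vps28 and Vta1 by -0.57 ± 0.156 and -0.42 ± 0.109. Dusp19, a phosphatase, Elmo2, a regulator of Rac, Tdrkh, a Tudor domain protein, and Sgce, epsilon-sarcoglycan, stood between -0.57 and -0.42.

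**Figure D4:**
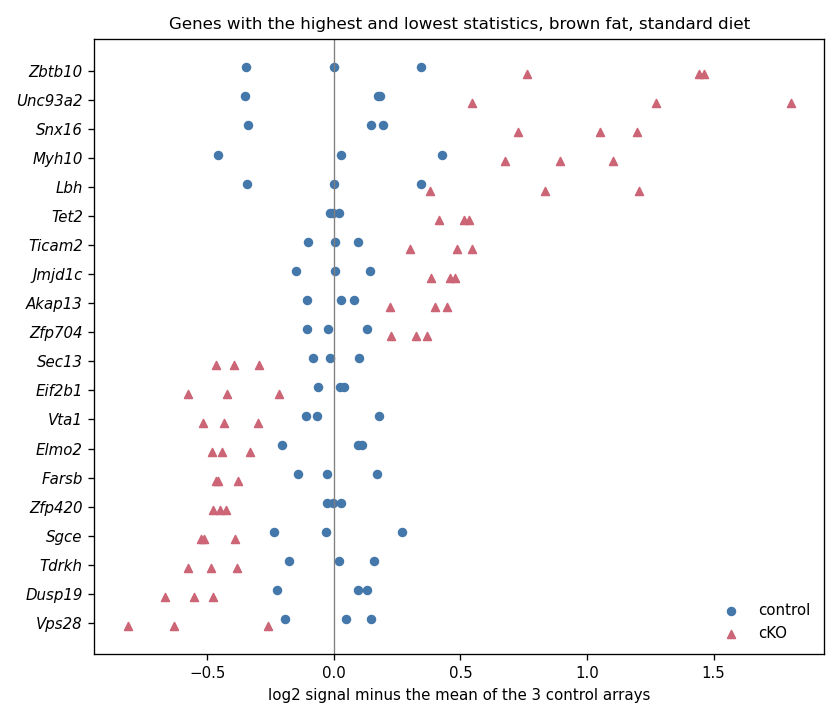
The 20 genes with the highest and lowest moderated statistics, as log2 signal of each array minus the mean of the 3 control arrays; circles are control and triangles cKO arrays. The cKO arrays of each gene lie on one side of its control arrays, from about 0.3 on the log2 scale for Zfp704 to 1.22 for Zbtb10 on average, and no gene passed the adjusted test.

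The same contrast on high fat diet, in other arrays, gave 0 genes past the adjusted p in limma as well. There 8.26% of genes had an unadjusted p under 0.05 (2.87% higher and 5.39% lower), and 19.8% had groups that did not overlap (7.33% higher and 12.5% lower). Zbtb10 differed there by 1.19, Snx16 by 1.09 and Zfp704 by 0.24, each with groups that did not overlap. On the lower side the groups on high fat diet did not overlap for Sec13, Farsb, Elmo2, Dusp19, Vta1 and Vps28 either. Tet2 differed there by -0.16, Jmjd1c by -0.017 and Zfp420 by 0.12. Over all genes, 62 were higher and 110 lower in cKO without overlap on both diets, and 48 did not overlap on either but with opposite sign. The 62 and the 110 include pseudogenes, among them several of Hmgb1, whose features may not be independent of each other. The 172 that kept their side are 13.9% of the 1239 genes on standard diet and 5.06% of the 3396 on high fat diet.

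Chosen from those after their values were seen, Angpt1, a ligand of the endothelial receptor Tie2, read 9.26, 8.89 and 9.23 in control and 10.84, 9.62 and 9.46 in cKO on standard diet. It differed by 0.85 ± 0.416, and by 1.16 on high fat diet. Apoe, an apolipoprotein of macrophages and adipocytes, read 11.49, 10.43 and 10.91 in control and 11.88, 11.66 and 11.78 in cKO, with differences of 0.83 and 1.86. Anxa8, an annexin, differed by 1.31 and 1.29, each resting largely on 1 array. On standard diet that was cKO array 3 at 8.33 against 6.05 and 5.89 on the other cKO arrays, and on high fat diet cKO array 1 at 8.39 against 5.16 and 5.02.

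Zbtb10, Snx16 and Zfp704 are neighbours on chromosome 3, in a stretch of 16 measured genes from Pex2 to Snx16 that was taken up because earlier results of this series had pointed to it. In cKO BAT on standard diet 15 of the 16 averaged higher, with a median of 0.469 against -0.017 for the rest of the genes. An unadjusted p under 0.05 was reached by 6 (1.67% of all genes in that direction), and 6 had groups that did not overlap (3.53% of all genes in that direction). With the muscle covariate 15 were higher, with a median of 0.495, and on high fat diet 13 were, with a median of 0.449. On high fat diet 9 were higher with groups that did not overlap (7.33% of all genes in that direction). Only 4 of the 16 did so on both diets, Tpd52, Zbtb10, Zfp704 and Snx16. Over all 17124 genes, 62 did, pseudogenes among them.

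Within the stretch, Stmn2, a microtubule regulator of neurons, read 5.56, 5.80 and 5.54 in control and 6.09, 5.97 and 6.03 in cKO, a difference of 0.39 ± 0.111. It differed by -0.22 on high fat diet. Tpd52 read 6.48, 6.72 and 6.52 in control and 6.93, 7.07 and 6.91 in cKO, a difference of 0.39 ± 0.128 here and of 0.53 on high fat diet. Zc2hc1a, a zinc finger gene, differed by 0.63 ± 0.252 and 0.72. Pkia, an inhibitor of protein kinase A that skeletal muscle expresses, differed by 3.03 ± 2.22, was at 4.81 on control array 2 and between 11.8 and 15.4 on the other 5. Without control array 2 it differed by -0.036.

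The stretch also holds the fatty acid carriers of adipocytes. Fabp5 was its one member lower in cKO, at 7.17, 6.53 and 6.42 in control and 6.02, 5.55 and 6.21 in cKO, without overlap, a difference of -0.78 ± 0.424 that was 0.12 on high fat diet. Fabp4 was at or near the ceiling on most arrays, between 19.3 and 19.9, and its difference of 0.16 ± 0.163 was -0.065 without control array 1.

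**Figure D5:**
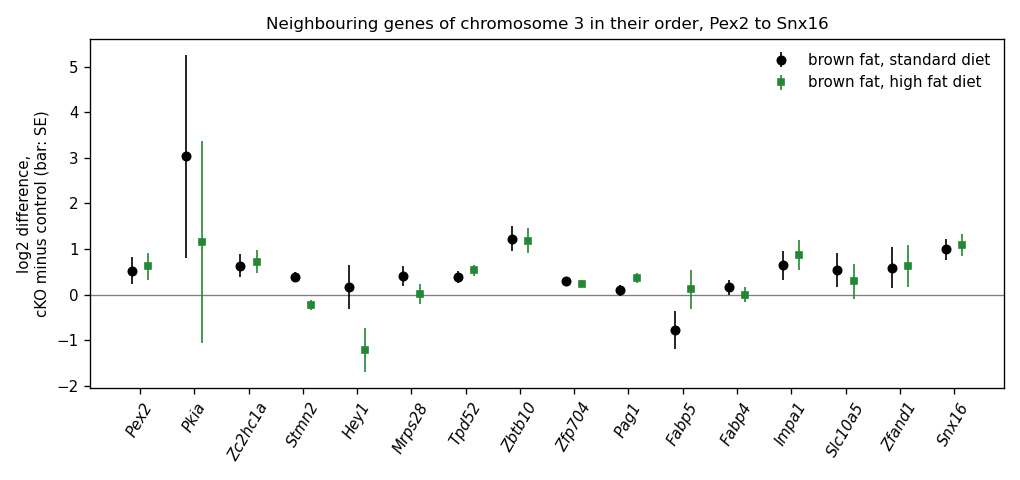
Log2 difference, cKO minus control, of 16 neighbouring genes of chromosome 3 in their order on the chromosome, with SE bars from the fit over 12 BAT arrays; circles are standard diet and squares high fat diet. Zbtb10 and Snx16 lie near 1 on both diets, Fabp5 lies at -0.78 on standard diet, and the bars of Pkia are the widest.

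In the ventromedial hypothalamus of mice on standard diet, fitted in its own arrays, Snx16 differed by 1.0 (limma, adjusted p = 0.000395), Zc2hc1a by 0.95 (adjusted p = 0.000395) and Zbtb10 by 0.76 (adjusted p = 0.000878). Zfp704 differed there by 0.46 (limma, adjusted p = 0.0663), and Fabp5, lower in cKO BAT, by 0.66 (limma, adjusted p = 0.0178). The hypothalamus arrays belong to the series whose earlier results pointed to the stretch, so their p-values are not a separate test of it. A further list held genes that earlier results of the series had named in the hypothalamus. Of its 8 members measured in BAT, 5 were higher and 3 lower, with a median of 0.257. Cdkn1a, a cell cycle inhibitor, differed by 0.66 ± 0.69, and by -0.076 without cKO array 1, and Mmp14, a membrane metalloprotease, by 0.48 ± 0.53. Ncan, the proteoglycan neurocan, read 5.88, 6.16 and 5.48 in control and 5.28, 5.04 and 5.30 in cKO, a difference of -0.63 ± 0.303. Id2, an inhibitor of bHLH transcription factors, read 6.74, 13.05 and 12.10 in control and 12.16, 8.66 and 10.63 in cKO, which is the array order of the brown adipocyte markers, and differed by -0.15 ± 1.48. Without control array 2 it differed by 1.06, without control array 3 by 0.59 and without cKO array 2 by 0.76.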

How the data were processed

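Total RNA of 12 BAT samples (4 groups of 3) and 12 hypothalamus samples was hybridised to Affymetrix arrays. The authors deposited 1 table of log2 values, 1 column per array, and the submitters' processing notes name Affymetrix Expression Console 1.1.1 and PLIER 2.0 with no role; the normalization between arrays is not given in the sources used here. Values ran from 2.12 to 19.93, with 98 to 129 features of a standard diet array at the top of the scale, where differences are lost. Array medians of the 6 standard diet arrays lay between 4.07 and 4.16 and their correlations between 0.904 and 0.991.

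Of 72688 features, 6732 controls were left out, 30604 carried 1 gene symbol, 2146 several and 33206 none. Symbols came from the platform annotation, updated by Entrez ID through RefSeq's GRCm38.p6 gene table. A gene was tested where the mean of its brightest feature over the 12 BAT arrays was at least 4.13, the median of the same mean over all features of the table, named or not, which left 17124. Group means were fitted with limma 3.58.1 in R 4.3.3 on the deposited values, all 4 BAT groups sharing 1 estimate of the spread, with Benjamini-Hochberg adjustment over all genes tested and a threshold of 0.05. The number of arrays limits the precision. The fit was tested on simulated data. Marker scores were compared by an exact permutation test over the 20 arrangements of 3 against 3.

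Genes named are the core clock members, Ucp1, the 10 highest and 10 lowest statistics among named genes other than predicted genes and small RNAs, up to 4 members of each list by smallest p, and genes whose choice is stated beside them. Further list members, such as Hmgcs1 and Srebf2, are named that these rules did not pick. The members and lists were chosen with earlier results of these data known. The 31 pathway lists and 13 marker lists were written by hand. Alternatives were the 6 standard diet arrays alone, quantile normalization, 16 added to the linear signal, no filter, averaging a gene's features, a robust prior with a trend, array weights, the replicate number as a block, the muscle score as a covariate and leaving out each array. The brown adipocyte score as a covariate and leaving out control array 1 with cKO array 2 were added after seeing the data. Replicate numbers did not pair the samples: control and cKO arrays of the same number correlated at -0.762, -0.772 and 0.158 in their deviations from the group means. Promoter windows of 300 bases are RefSeq's.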

Additional observations from a re-analysis of the deposited data

How the results depend on the processing

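The count of genes past the adjusted threshold in limma was 0 in the fit reported and in all 17 alternatives, and 0 for the genotype by diet interaction in all 16 that allow it; genes at an unadjusted p under 0.05 ranged from 425 (the 6 standard diet arrays alone) to 1604 (without cKO array 1). With the replicate number as a block the counts were 0 and 0, with 559 genes at an unadjusted p under 0.05. Quantile normalization put 38.5% of genes above 0, against 46.2%, and shifted the median of all genes to -0.052. Array weights ran from 0.000317 to 30.6, and their estimate stopped before converging. Both extremes fell on standard diet arrays, the lowest on control array 3 and the highest on cKO array 3. Control arrays 1 and 2 weighed 0.857 and 0.651, and cKO arrays 1 and 2 weighed 0.61 and 1.12. Under array weights the difference turned sign for Per1 (-0.16), Nr1d1 (-0.61), Dbp (-0.51), Elovl3 (1.95), Fasn (0.017), Id2 (1.13) and H2-Ab1 (-0.029). With the muscle score as a covariate it turned for Dbp (-0.30), Usp2 (-0.20), Id2 (0.87) and Retn (-0.27). Without control array 1 and cKO array 2, added after seeing the data, it turned for Ucp1 (-0.31) and Cidea (-0.80). Quantile normalization turned the brown adipocyte score (-0.027) and the mural score (-0.024). The cause of these turns was not tested.

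Leaving out each array in turn changed the sign of 15 named genes. The ranges were -0.025 to 0.70 for Arntl, -0.23 to 0.31 for Clock, -0.49 to 0.68 for Dbp, -0.39 to 1.13 for Usp2, -1.42 to 4.11 for Ucp1, -2.26 to 2.68 for Cidea, -5.80 to 0.18 for Elovl3, -0.74 to 1.48 for Ppara, -1.60 to 0.026 for Hmgcs1, -0.20 to 7.28 for Myh4, -2.10 to 1.06 for Id2, -0.076 to 1.33 for Cdkn1a, -0.547 to 1.37 for Retn, -0.036 to 5.01 for Pkia and -0.065 to 0.27 for Fabp4. Marker scores ranged from -1.39 to 0.946 for brown adipocytes, -0.344 to 0.803 for white adipocytes, -0.935 to 4.84 for fast muscle, -0.228 to 0.132 for neutrophils, -0.178 to 0.30 for lymphocytes, -0.277 to 0.22 for endothelium, -0.188 to 0.233 for mural cells, -0.462 to 0.407 for Schwann cells and -0.118 to 0.213 for mesothelium. With 3 arrays a group, the precision is limited, and features at the top of the scale can show no difference. The SE printed beside each gene pools the spread of all 4 BAT groups. Where the high fat arrays vary less, it understates the spread of the standard diet arrays.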

Other observations

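Small RNA genes are among the 17124 genes tested and were not described above by class. Of 588 small nuclear RNA genes (snRNA, parts of the spliceosome and their copies) 84.4% averaged higher in cKO BAT on standard diet, with a median difference of 0.436, against 42.4% of 11742 protein coding genes. Their median signal was 7.91, 7.51 and 7.42 in control and 7.29, 8.45 and 8.42 in cKO, so the groups overlapped. With the muscle score as a covariate the median was 0.249, and on high fat diet it was 0.188. Of 62 ribosomal RNA genes 93.5% averaged higher, with a median of 0.60, but on high fat diet 3.23% did, with a median of -0.94. Small nucleolar RNA genes, which guide modification of ribosomal RNA, were higher in 68.4% of 500, with a median of 0.103. Copies of these genes share sequence, so their features are not independent of each other, and the cause was not tested.

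Features without exactly 1 gene symbol were tested apart. Of 14047 above the filter, 0 passed an adjusted p of 0.05 in limma and 604 had an unadjusted p under 0.05.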
